A study of Mus musculus with 36 samples.

Results

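The 10 genes described here carry out, control or accompany de novo lipogenesis, the synthesis of fatty acids from citrate. They were fixed as a named list, Srebf1, Mlxipl, Fasn, Acaca, Acly, Scd1, Elovl6, Me1, Thrsp and Pnpla3, which was looked up by Ensembl identifier in 6 tables of gene counts, and all 10 had a row in each table, of 54838 genes in the tables of liver, epididymal white adipose tissue (eWAT), gastrocnemius muscle and cauda spermatozoa, 51912 in that of round spermatids and 55487 in that of morulae. The study asked whether the diet of a father before conception changes transcripts in his germ cells and in the metabolic tissues of his offspring. All 36 samples came from C57BL/6 wildtype mice by the labels, bought as C57BL/6N by the study's methods. Cauda spermatozoa, the sperm cells stored at the end of the epididymis, came from males fed for 2 weeks from the age of 6 weeks on a High Fat Diet (HFD, 60% of kcal from fat) or a Low Fat Diet (LFD, 10%) and killed at 8 weeks, with 3 libraries per diet. Morulae, embryos before blastocyst formation, were made by in vitro fertilization with such sperm and oocytes of unexposed females and picked after 72 h of culture, with 3 libraries per father's diet. Liver, eWAT and gastrocnemius, with 6 libraries each, came from chow-fed sons of HFD fathers that the study sorted by glucose tolerance into tolerant (HFDt) and intolerant (HFDi) animals. The 6 round spermatid libraries came from males on both diets. The count columns of these last 4 tables name neither a diet nor a tolerance group, so each was treated as 1 group and diet was compared in sperm and morula alone. For 3 of the 6 morula samples the description names the other diet than the title and the treatment, which were followed here.

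In lipogenesis, ATP citrate lyase (Acly) splits citrate into acetyl-CoA, acetyl-CoA carboxylase 1 (Acaca) makes malonyl-CoA, fatty acid synthase (Fasn) builds palmitate, Elovl6 lengthens it, and stearoyl-CoA desaturase 1 (Scd1) introduces a double bond. Malic enzyme 1 (Me1) supplies NADPH. In liver the pathway is known to rise after carbohydrate feeding through insulin and SREBP-1c, a product of Srebf1, and through the glucose-responsive factor ChREBP, encoded by Mlxipl. Thrsp (Spot 14) is a small nuclear protein that accompanies lipogenesis, and Pnpla3 encodes a lipid-droplet protein whose transcript is a known target of SREBP-1c. Whether the offspring had been fed or fasted when the tissues were taken is not given in the sources used here.

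Counts per library ranged from 2036237 to 2552454 in liver, 1338149 to 4055537 in eWAT, 369772 to 2749920 in gastrocnemius, 2560219 to 4062321 in sperm, 11471251 to 12153141 in morula and 20138842 to 31056066 in round spermatids. Levels are given as CPM, the count scaled to the library total. A gene without a count may have had up to 3, or 0.74 to 2.24 CPM in an eWAT library, at most 1.47 in a liver library and 8.11 in the shallowest gastrocnemius library, number 4. Such limits cover counting error only. The tissue libraries count 3′ end tags, about 1 site per transcript, so CPM is not divided by gene length there. Marker genes matched the labelled tissues, with 45307 to 66563 summed CPM of 6 hepatocyte markers in liver, 31025 to 44549 of 6 adipocyte markers in eWAT and 41612 to 84336 of 6 muscle markers in gastrocnemius. eWAT library 17 stood apart, with 69.8 CPM of spermatid markers where the other 5 held at most 2.29, and eWAT libraries also held 83.7 to 800 CPM of hepatocyte markers. In sperm, epididymal epithelium markers summed to 1608 to 2733 CPM on HFD and 2718 to 24133 CPM on LFD, and mtDNA-encoded genes held 78.1% to 84.3% of counts on HFD and 43.5% to 64.7% on LFD, without overlap. In bulk samples, fewer cells of a type and less RNA per cell cannot be told apart.

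The members lie on 7 chromosomes of GRCm38. In the tables, Srebf1 is at chr11:60199089-60222581, Fasn at chr11:120805846-120824547 and Acly at chr11:100476353-100528000, all on the minus strand, and Acaca at chr11:84129672-84401651 on the plus strand. Scd1 is at chr19:44394451-44407709 and Me1 at chr9:86581371-86695953 and Thrsp at chr7:97412938-97417730 on the minus strand, and Mlxipl at chr5:135089890-135138382, Elovl6 at chr3:129532355-129638495 and Pnpla3 at chr15:84167837-84187236 on the plus strand. The liver, eWAT and gastrocnemius libraries hold tags from the 3′ end of transcripts, so a gene model that stops short of the true end loses its tags. The Pnpla3 model of these tables ends 2285 bases before the end that RefSeq gives, and the Mlxipl model 1386 bases before. Sperm and morulae have the same short Pnpla3 model, while that of round spermatids ends 9 bases before the RefSeq end. The 3′ end of Srebf1 shares 109 exonic bases with Rai1 on the opposite strand, and the strand setting of the counting is not given in the sources used here. The levels of these 3 genes in the 3′ tag libraries are therefore uncertain.

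Of the regulators, Mlxipl had more tags than Srebf1 in every one of the 3 tissues. Mlxipl measured 55.4 CPM at the lowest, 85.3 at the median and 96.6 at the highest of 6 liver libraries. It measured 22.1, 31.6 and 48.4 CPM in eWAT and 26.7, 29.6 and 35.2 CPM in gastrocnemius. All 6 liver libraries lay above all of the other 2 tissues, and the eWAT and gastrocnemius ranges overlapped. Srebf1 reached only 19 counts in the liver libraries together, from 0 to 2.74 CPM, against 0 to 7.40 CPM in eWAT and 0.563 to 8.55 CPM in gastrocnemius, with overlap between all 3. Pnpla3 had no count in liver, eWAT or gastrocnemius, which allows up to 0.223, 0.169 and 0.305 CPM over the counts of each tissue and, with the short gene model, does not show absence of the transcript.

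Scd1 was the most abundant member in liver and eWAT. In eWAT it measured 11256, 15174 and 19852 CPM at the lowest, median and highest library and ranked 7 among 26720 genes with a count, and its tags made up 92.9% to 96.8% of all tags of the 10 genes. In liver it measured 1248, 2122 and 3712 CPM and ranked 42 among 21484 genes. Gastrocnemius held 18.9, 74.8 and 241 CPM, below every library of the other tissues. The close relative Scd2 lay at 0 to 1.76 CPM in liver and 2.99 to 53.5 CPM in eWAT. Within gastrocnemius, the 3 libraries with the most Scd1, 241 CPM in library 4, 145 in library 9 and 108 in library 7, also held the most adipocyte marker tags, 557, 592 and 1201 summed CPM, against 227 to 402 in the others. The part of adipocyte RNA in these Scd1 values was not tested.

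The other enzymes fell into 3 patterns. Fasn and Acaca had their highest levels in eWAT, with 347 to 601 CPM of Fasn there against 33.8 to 68.2 in liver and 3.20 to 6.55 in gastrocnemius, and 36.2 to 86.2 CPM of Acaca against 7.64 to 18.7 and 1.69 to 5.34. On this scale of library totals, the ranges of both genes were separate between all 3 tissues. Elovl6 was highest in liver, with 25.5 to 50.9 CPM against 4.24 to 18.2 in eWAT and 0 to 2.22 in gastrocnemius, again without overlap. Of the 3 tissues, Me1 had its highest median in gastrocnemius, at 40.6 to 127 CPM there, 39.6 to 84.8 in eWAT and 23.1 to 33.9 in liver, and the gastrocnemius and eWAT ranges overlapped. Acly was at 25.2 to 58.1 CPM in eWAT and 12.3 to 26.5 in liver, which overlapped, and at 2.26 to 8.11 in gastrocnemius. Thrsp measured 54.7 to 168 CPM in eWAT, against 1.96 to 9.79 in liver and 1.80 to 11.1 in gastrocnemius. In CPM of library totals, 6 of the 9 members with a count had their highest median in eWAT, 2 in liver and 1 in gastrocnemius. The place of Acly in this count depends on the scaling. With TMM scaling over all 3 tissues, described below, Acly came to 0.11 ± 0.21 on the log2 scale in liver against eWAT. Srebf1 overlapped between all 3 tissues and was not tested there. Among the eWAT libraries, library 17 was the lowest in Scd1, Acaca and Thrsp and the highest in Acly and Elovl6.

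**Figure D1:**
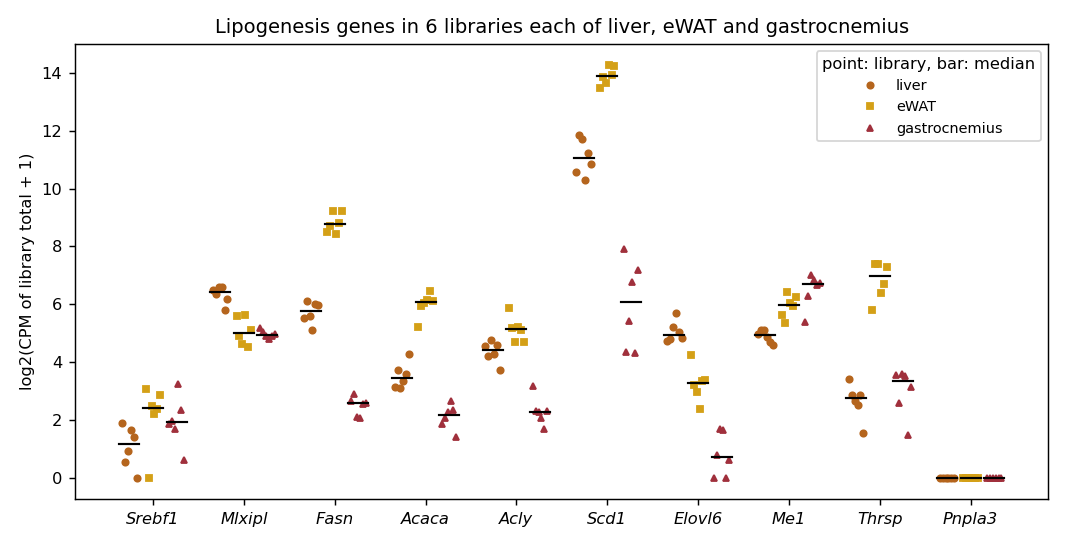
Level of each of the 10 genes in the liver, eWAT and gastrocnemius libraries, as log2(CPM of the library total + 1), with 1 point per library, 6 libraries per tissue and a bar at the median. Scd1 in eWAT is the highest of all values, Fasn, Acaca, Scd1 and Thrsp are highest in eWAT without overlap, Mlxipl and Elovl6 are highest in liver without overlap, and Pnpla3 has no count.

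Promoter sequences were looked up in RefSeq (GRCm38.p6), 250 bases before to 50 after the start, and were found for 9 members; Scd1 was not among them. Those of Fasn, Thrsp and Mlxipl are shown here 5′ to 3′ on the gene's strand. Each of these had 1 tissue above the other 2 in CPM without overlap, eWAT for Fasn and Thrsp and liver for Mlxipl. The same held for Acaca (eWAT) and Elovl6 (liver), whose windows held 0 matches to any motif searched and are not shown. The only Acaca window, chr11:84195188-84195487, lies inside the gene, which starts at 84129672, so the sequence at its upstream start was not searched. Capitals mark matches to CACGTG (the E-box that ChREBP, SREBP-1 and USF proteins can bind), TCACNCCAC (a sterol regulatory element, SRE) and CCAAT (the box bound by NF-Y), searched on both strands. Mlxipl is shown at both of its listed starts.
Fasn, chr11:120824498-120824797, minus strand: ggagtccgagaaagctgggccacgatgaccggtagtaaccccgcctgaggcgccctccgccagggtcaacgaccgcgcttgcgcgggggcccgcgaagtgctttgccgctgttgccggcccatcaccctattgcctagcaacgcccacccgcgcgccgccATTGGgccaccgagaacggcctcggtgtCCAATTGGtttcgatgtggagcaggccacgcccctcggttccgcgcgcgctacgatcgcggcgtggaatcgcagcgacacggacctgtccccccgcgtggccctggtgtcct
Thrsp, chr7:97417501-97417800, minus strand: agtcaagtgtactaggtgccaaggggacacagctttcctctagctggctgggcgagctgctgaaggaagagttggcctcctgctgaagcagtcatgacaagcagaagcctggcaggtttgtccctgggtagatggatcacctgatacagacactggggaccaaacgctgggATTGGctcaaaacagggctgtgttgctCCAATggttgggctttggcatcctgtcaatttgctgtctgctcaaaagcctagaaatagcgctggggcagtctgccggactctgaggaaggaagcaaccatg
Mlxipl, upstream start, chr5:135089640-135089939, plus strand: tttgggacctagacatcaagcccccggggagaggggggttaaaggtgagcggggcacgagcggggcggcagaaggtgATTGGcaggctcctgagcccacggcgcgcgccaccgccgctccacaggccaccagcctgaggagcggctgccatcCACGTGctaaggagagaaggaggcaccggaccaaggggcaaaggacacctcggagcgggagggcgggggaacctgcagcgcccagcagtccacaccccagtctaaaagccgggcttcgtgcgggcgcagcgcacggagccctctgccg
Mlxipl, downstream start, chr5:135106641-135106940, plus strand: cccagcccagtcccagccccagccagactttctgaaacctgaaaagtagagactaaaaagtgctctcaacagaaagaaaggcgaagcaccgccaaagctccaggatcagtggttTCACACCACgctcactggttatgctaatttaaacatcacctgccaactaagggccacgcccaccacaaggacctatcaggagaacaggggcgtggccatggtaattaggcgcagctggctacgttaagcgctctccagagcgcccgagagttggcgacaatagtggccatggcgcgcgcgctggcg

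A gene can have several listed starts, 13 for the 9 members and 32851 for 27025 genes, and was counted once where any of its windows held a motif. A CCAAT box lay in 7 of the 9 members, against 41.1% of all genes, or in 8 of the 13 windows, against 37.4% of all windows of the same length. The Fasn window held 3 such matches, of which CCAAT at positions -62 to -58 and its reverse at -59 to -55 overlap by 2 bases, and the Thrsp window held 2. An E-box was found in 1 of the 9, the upstream Mlxipl window at -98 to -93, against 8.09% of all genes (7.15% of windows), and an SRE in 1 of the 9, the downstream Mlxipl window at -136 to -128, against 1.44% (1.24% of windows). The GC box GGGCGG, not capitalised above, was in 5 of the 9 (38.2% of all genes, 35.7% of windows), and the TATA box TATAAA in 0 (15.7% and 13.6%). These matches describe the letters of the windows and nothing about binding.

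Liver, eWAT and gastrocnemius were compared in one edgeR quasi-likelihood fit of 18 libraries with TMM scaling, in which 8 members were among the 10851 genes tested; Srebf1 and Pnpla3 did not pass the filter on low counts. All fold changes are on the log2 scale, with the standard error and the Benjamini-Hochberg adjusted p over all genes tested. In liver against eWAT, 2 of the 8 members were higher and 4 lower, where 28.9% of all genes tested were higher and 32.6% lower, and the median over the members was -0.90 against -0.07 over all genes. Elovl6 was higher in liver by 2.71 ± 0.29 (adjusted p = 2.21e-08) and Mlxipl by 2.17 ± 0.20 (adjusted p = 1.17e-09). Thrsp was lower by 3.45 ± 0.36 (adjusted p = 1.27e-08), Fasn by 2.19 ± 0.21 (adjusted p = 3.21e-09), Scd1 by 1.81 ± 0.48 (adjusted p = 0.0025) and Acaca by 1.63 ± 0.25 (adjusted p = 4.44e-06). Acly and Me1 did not pass, at 0.11 ± 0.21 and -0.18 ± 0.22. Scaling by library totals moved the median of all genes from -0.07 to -0.996 and the share of calls that were higher in liver from 47.0% to 16.7%, and Acly and Me1 then passed as lower in liver, by 0.83 (adjusted p = 0.0021) and by 1.10 (adjusted p = 8.54e-05).

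Against gastrocnemius, both other tissues had more of most members. In liver, 6 of 8 were higher (34.9% of all genes) and 1 lower (31.4%), led by Elovl6 at 5.05 ± 0.44 (adjusted p = 5.49e-10), Scd1 at 4.68 ± 0.56 (adjusted p = 9.77e-08) and Fasn at 3.40 ± 0.27 (adjusted p = 1.13e-10). Me1 was the member that was lower in liver, by 1.75 ± 0.22 (adjusted p = 2.72e-07), and Thrsp did not pass, at -0.31 ± 0.43. In eWAT, 6 of 8 were higher (41.1%) and 2 lower (26.3%). Scd1 differed by 6.48 ± 0.60 (adjusted p = 2.57e-09), Fasn by 5.59 ± 0.27 (adjusted p = 9.49e-14), Acaca by 3.25 ± 0.31 (adjusted p = 3.58e-09) and Thrsp by 3.14 ± 0.37 (adjusted p = 1.32e-07). Me1 was lower in eWAT by 1.57 ± 0.22 and Mlxipl by 0.77 ± 0.20 (adjusted p = 0.0019). With library totals the Me1 value became -0.62 ± 0.21 (adjusted p = 0.0102) and the Mlxipl value 0.20 (adjusted p = 0.375). Under that scaling the median of all genes moved from 0.35 to 1.32 and the higher share of calls from 61.0% to 85.7%. The libraries are not tied to animals in the labels, so these p-values measure the spread between libraries alone.

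**Figure D2:**
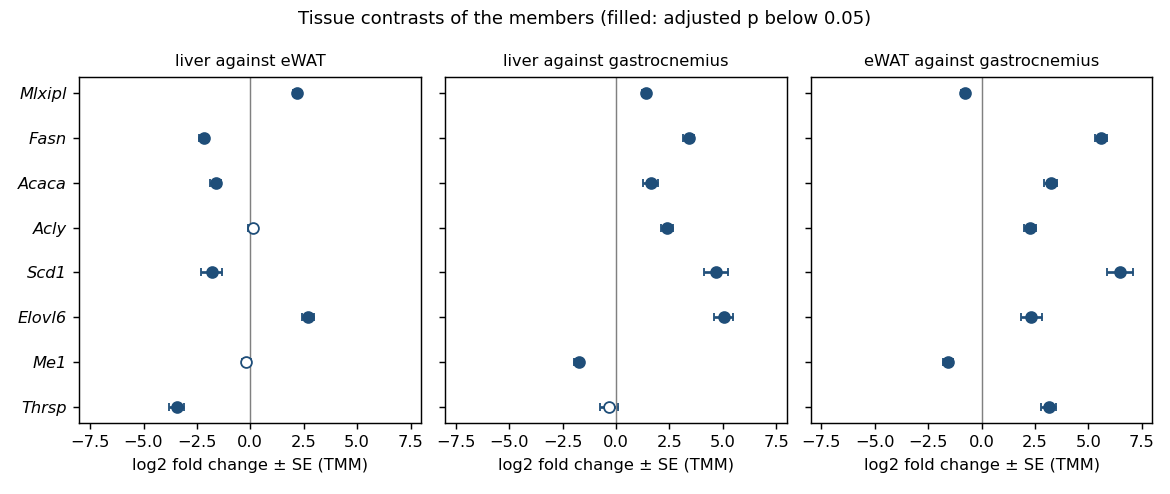
Fold changes of the 8 members that passed the filter, on the log2 scale with standard errors, for liver against eWAT, liver against gastrocnemius and eWAT against gastrocnemius, 6 libraries per tissue; filled points have an adjusted p below 0.05. Fasn, Acaca, Scd1 and Thrsp lie left of 0 and Mlxipl and Elovl6 right of 0 in the first panel, and Me1 lies left of 0 in both comparisons with gastrocnemius.

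Genes around the pathway were counted in the same fit. Of 17 regulators (SREBP processing, LXR, RXR and partners), 14 were tested and 6 were higher in liver than in eWAT and 1 lower, among them Insig2, which retains SREBP in the endoplasmic reticulum, at 3.43 ± 0.20 and its escort partner Scap at 2.20 ± 0.25, while Mlxip, a paralogue of Mlxipl, was lower by 1.59 ± 0.24. Of 18 further lipogenic enzymes 13 were tested, with 7 higher and 5 lower. Elovl5 was higher by 4.08 ± 0.23, with 1487 to 2601 CPM in liver, and Elovl3 by 8.53 ± 0.48 against 0 to 4.79 CPM in eWAT, whereas G6pdx, an NADPH source in the pentose phosphate pathway, was lower by 4.53 ± 0.34 and the mitochondrial malic enzyme Me3, with 5 counts in liver, by 3.27 ± 0.49. The 11 triglyceride synthesis genes (9 tested) gave 5 higher and 4 lower, with Lpin2 at 4.99 ± 0.31, Agpat2 at 1.74 ± 0.23, Mogat1, with 3 counts in liver, at -4.45 ± 0.58 and Dgat1 at -1.82 ± 0.20. Of all genes tested, 28.9% were higher and 32.6% lower in this fit, and the list medians were 0.39, 1.21 and 1.00. When scaled by library totals, the 3 lists had 5, 5 and 3 members higher and 7, 6 and 4 lower, where 1406 of the 10851 genes were higher and 6995 lower.

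The other lists, of neighbouring pathways, were higher in liver in most of their tested members, where 28.9% of all genes tested were higher and 32.6% lower. SREBP-2 targets of cholesterol synthesis had 6 of 8 higher and 0 lower, or 4 higher and 2 lower when scaled by library totals. Mitochondrial fatty acid synthesis had 4 of 5 higher, with Acsf3 at 1.41 ± 0.28 and Mcat at 1.19 ± 0.30, but when scaled by library totals 0 of the 5 were higher and 1 lower. Genes known to respond to fasting had 10 of 12 higher and 2 lower (9 and 2 with library totals), with the fatty acid hydroxylases Cyp4a14 at 8.96 ± 0.67 (4801 to 6682 CPM in liver) and Cyp4a10 at 8.33 ± 0.77 (8008 to 20698 CPM), and Pdk4, an inhibitor of pyruvate dehydrogenase, at -3.03 ± 0.47 and the lipoprotein lipase inhibitor Angptl4 at -1.34 ± 0.22. Each of the fold changes named in this and the previous paragraph had an adjusted p below 0.05 in the edgeR fit. In the order given the 6 lists had 14, 13, 9, 8, 5 and 12 members tested. In liver against gastrocnemius 8, 8, 6, 7, 2 and 10 of these were higher and 3, 3, 1, 0, 0 and 2 lower, where 34.9% of all genes tested were higher and 31.4% lower. In eWAT against gastrocnemius 5, 9, 6, 6, 1 and 7 were higher and 1, 2, 1, 0, 3 and 2 lower, where 41.1% of all genes were higher and 26.3% lower, and with library totals 9, 11, 8, 8, 2 and 8 were higher and 1, 2, 1, 0, 0 and 2 lower, where 67.8% and 11.3% were.

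Whether the members varied together from library to library was asked in liver, where 8 members had enough counts (28 pairs), and in eWAT, where 9 had (36 pairs). The median Pearson r over pairs, of log2 CPM with TMM scaling and a prior count of 2, was 0.02 in liver and -0.04 in eWAT, with 14 of 28 and 17 of 36 pairs positive, beside 18026531 of 36018828 and 33978276 of 67773903 pairs of all genes with the same filter. An r of at least 0.8 was found in 0 of 28 pairs in liver (3.82% of all pairs) and 1 of 36 in eWAT (4.18%), and an r of -0.8 or below in 1 (3.47%) and 3 (4.00%). By exact two-sided permutation of the 6 libraries, 1 pair in liver and 2 in eWAT had a p below 0.05, and 0 passed after adjustment over the pairs of the tissue, the smallest adjusted p being 0.544 and 0.300. Some of these members had few counts per library. In liver Thrsp had 4 to 25 and Acaca 17 to 38, and in eWAT Srebf1 had 0 to 26. The part of counting error in the correlations was not tested. A tissue's 6 libraries may hold tolerant and intolerant animals, which these columns do not tell apart.

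The largest correlations were negative and involved Acly. In eWAT this was Acly with Fasn, at r = -0.93 (exact permutation p = 0.0083) and rho = -0.94 (p = 0.0167, adjusted p = 0.300 for r and 0.600 for rho), and r stayed between -0.98 and -0.90 when any 1 library was left out and was -0.92 without the 2 libraries farthest from the median of Fasn. On library totals the same pair came to r = -0.84 (exact permutation p = 0.0319) and to -0.51 without the 2 farthest libraries. The value of Acly and Thrsp was r = -0.84 (rho = -0.66, exact permutation p = 0.0389 and 0.175, adjusted p = 0.460 and 0.900), which became -0.57 without library 17 and -0.47 without the 2 libraries farthest from the median of Acly. The 2 eWAT libraries with the least Fasn and the most Acly, 17 and 25, held the fewest tags of 5 erythroid markers, 4146 and 6625 summed CPM, and the most of 6 leukocyte markers, 1410 and 1422. They also held the fewest tags of 6 adipocyte markers, 31025 and 37295 summed CPM, against 40697 to 44549 in the others. The 2 with the most Fasn and the least Acly, 22 and 27, held the most erythroid tags, 11366 and 14074 summed CPM. As a description over these 6 libraries, r with the log2 erythroid sum was 0.91 for Fasn, -0.91 for Acly and 0.95 for Thrsp. In the same order of genes, r was 0.72, -0.76 and 0.93 with the log2 adipocyte sum and -0.87, 0.73 and -0.81 with the log2 leukocyte sum. The part of these cells in the correlations was not tested. In liver the largest was Acaca with Acly, at r = -0.89 and rho = -0.83 (exact permutation p = 0.0194 and 0.0583, adjusted p = 0.544 and 0.817). Liver library 24 held the most Acaca, 18.7 CPM, and the least Acly, 12.3 CPM, and r was -0.65 without it and -0.42 without the 2 libraries farthest from the median of Acaca, so that the relation rests on these libraries.

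The largest positive values were smaller. Fasn and Thrsp had r = 0.81 in eWAT (rho = 0.60, exact permutation p = 0.0625 and 0.242, adjusted p = 0.460 and 0.944), and r lay between 0.72 and 0.94 with any 1 library left out and was 0.70 without the 2 farthest from the median of Fasn. Acaca and Scd1 had r = 0.75 there (rho = 0.71, exact permutation p = 0.0639 and 0.136, adjusted p = 0.460 and 0.900), but 0.29 without library 17, which held the least of both genes, 36.2 CPM of Acaca and 11256 CPM of Scd1, and 0.90 without the 2 farthest from the median of Acaca. Acly and Thrsp had r = 0.80 in liver (rho = 0.60, exact permutation p = 0.0806 and 0.242, adjusted p = 0.617 and 0.831) and 0.23 without library 24, which held the least of both, and 0.72 without the 2 farthest from the median of Acly. That library also had the highest summed CPM of adipocyte, muscle and leukocyte markers among the liver libraries, 85.0, 74.2 and 137, and the part of this in the correlations was not tested. Mlxipl, the ChREBP gene, had r between -0.60 and 0.67 with the 7 other members in liver and between -0.59 and 0.55 with the 8 others in eWAT.

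**Figure D3:**
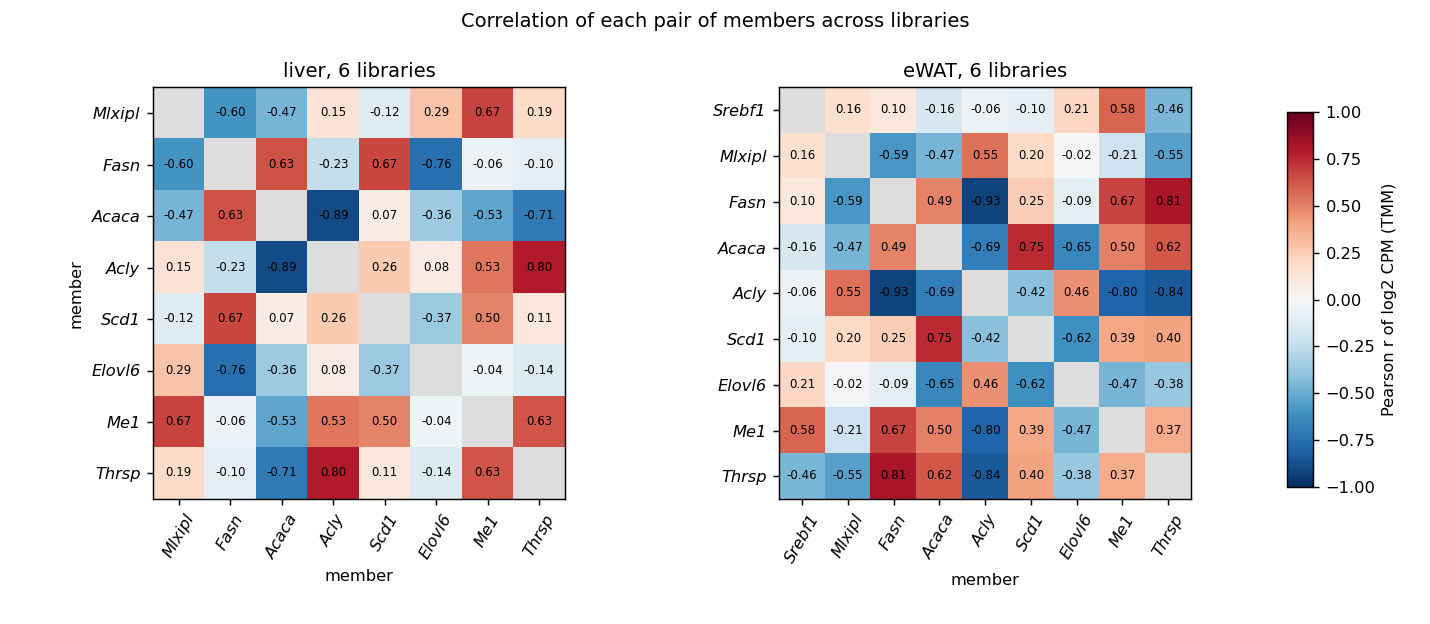
Pearson r of log2 CPM (TMM, prior count 2) for each pair of members over the 6 liver libraries (left, 8 members) and the 6 eWAT libraries (right, 9 members), from blue at -1 to red at 1. Red and blue cells mix in both panels, and the deepest blue cells are the pairs of Acly with Acaca in liver and with Fasn in eWAT.

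The mean z-score of the members over libraries ran from -0.55 in liver library 24 to 0.57 in library 14, and from -0.31 in eWAT library 17 to 0.58 in library 27. The genes with patterns most like it, among 5900 in liver with a mean of at least 10 CPM, were Osbp, Ube2k, Lrp6, Pgrmc1 and Car3, with r from 0.97 to 0.99 over 6 libraries. In eWAT, among 8317 genes, they were Npr3, Rbm28, Klf6, Lpgat1 and Ehd2, again with r from 0.97 to 0.99. Such values are a description, since in 6 libraries 4.08% of all other genes in liver and 3.72% in eWAT reached an r of 0.8. Of the pathway lists, 0 of 11 further lipogenic enzymes, 1 of 14 regulators and 1 of 8 triglyceride genes did so in liver, and 0 of 12, 0 of 14 and 1 of 10 in eWAT.

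Scd1 and Acly had the highest median levels of the members in sperm on both diets. Per kilobase of gene model (RPKM, for comparison between genes in full-length libraries), Scd1, Acly and Elovl6 had the highest medians on LFD, 46.6, 40.0 and 12.9, and Acly, Scd1 and Fasn on HFD, 13.4, 9.67 and 3.71. Pnpla3, with its short gene model, had no count in 19259820 counts of the 6 libraries, and Thrsp had 24. On the CPM scale of library totals, Acly measured 70.8, 77.5 and 21.7 CPM in HFD libraries 1000, 3000 and 4000, and 205, 211 and 327 CPM in LFD libraries 1000, 2000 and 4000. Scd1 measured 46.8, 142 and 26.4 CPM on HFD and 181, 226 and 561 CPM on LFD. Elovl6 measured 14.03, 23.6 and 9.79 CPM on HFD and 48.4, 82.9 and 188 CPM on LFD. In these 3 genes, as in Fasn and Acaca, every LFD library lay above every HFD library. The library total includes mtDNA-encoded counts, whose share was higher in every HFD library. With these left out of the total, Acly, Elovl6 and Acaca stayed separate, while Fasn overlapped, at 448, 186 and 60.9 CPM on HFD and 330, 327 and 381 on LFD, as did Scd1, at 297, 650 and 126 and at 495, 638 and 993 CPM.

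The same separation held for most genes tested. By library totals, 5 of the 8 members tested were lower on HFD without overlap, where 57.2% of all 8643 genes tested were, and the same 5 passed the edgeR test, where 37.8% of all genes did so downward. Their fold changes were -2.89 ± 0.79 for Acaca, -2.75 ± 0.68 for Elovl6, -2.17 ± 0.67 for Scd1, -2.13 ± 0.61 for Acly and -1.87 ± 0.65 for Fasn (adjusted p from 0.0132 to 0.032), beside a median of -1.82 over all genes tested. On totals without mtDNA, an alternative chosen after seeing the data, 3 of 8 members were lower without overlap, where 26.2% of 8625 genes were, and 0 members and 0 genes (0%) passed the edgeR test. Acaca came to -1.79 ± 0.69 and Elovl6 to -1.52 ± 0.56 (adjusted p = 0.269 and 0.257), Scd1, Acly and Fasn to -0.99, -0.94 and -0.59, beside a median of -0.66 over all genes; 1399 genes had an unadjusted p below 0.05. Leukocyte markers summed to 560, 822 and 288 CPM in the HFD libraries and 1573, 2184 and 3961 CPM in the LFD libraries, and epididymal epithelium markers to 2001, 2733 and 1608 and to 2718, 8154 and 24133 CPM. LFD library 4000 was highest in both and had the lowest mtDNA share, 43.5%. On totals with mtDNA it was also highest in Acly, Scd1, Elovl6, Fasn and Acaca. On totals without mtDNA it stayed highest in Scd1, Elovl6 and Acaca. Acly was then highest in LFD library 2000 (597 CPM) and Fasn in HFD library 1000 (448 CPM). Spermatid and sperm markers overlapped, at 2995 to 5458 and 2678 to 5586 CPM. All 6 leukocyte markers had counts on both diets, and of the 6 epididymal markers Lcn8 was at 0 on HFD. The study's methods describe a swim-up of the sperm, a wash in a lysis buffer with SDS and Triton X-100 and a microscope check that kept preparations in which no somatic cell was seen. The part of other cells and of the mtDNA share in the members' values was not tested.

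With TMM scaling, which sets the median gene close to 0, 0 of 8 members and 0 of 8643 genes (0%) passed the edgeR test on diet. At an unadjusted p below 0.05 there were 1 member, Me1, which was higher, and 1122 genes, of which 720 were higher (8.33% of those tested); DESeq2 called 286 genes and limma-voom 0. Me1 measured 8.40, 15.8 and 17.8 TMM-scaled CPM on HFD and 5.43, 4.42 and 2.12 on LFD, without overlap, a fold change of 1.82 ± 0.73 (adjusted p = 0.309, edgeR). On library totals its groups overlapped, at 4.34, 11.3 and 7.88 CPM against 8.24, 6.88 and 5.47. Acaca was the member lower on HFD without overlap, at 3.87, 9.98 and 6.15 TMM-scaled CPM against 14.2, 15.6 and 16.95 (-1.20 ± 0.64, adjusted p = 0.460). Without overlap, 8.12% of all genes tested were higher and 12.3% lower on HFD, so 1 of 8 members in either direction is close to the background.

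The other 6 members overlapped between the diets after TMM scaling. Elovl6 came to -0.94 ± 0.49, Scd1 to -0.46 ± 0.53, Acly to -0.43 ± 0.48 and Fasn to -0.10 ± 0.54, while the regulators Mlxipl and Srebf1 came to 0.62 ± 0.65 and 0.61 ± 0.66 (adjusted p from 0.446 to 0.961, edgeR). Both regulators had negative values on library totals, -0.97 and -1.14. Of the other lists 0 genes passed with TMM scaling. At an unadjusted p below 0.05, 4 of 7 triglyceride synthesis genes were higher on HFD, beside 8.33% of all genes tested. These were Dgat1, Agpat2, Gpat4 and Lpin1 with fold changes of 3.36, 2.31, 1.75 and 1.40 (adjusted p from 0.256 to 0.382), named after their values were seen. On library totals 0 of the 7 were higher and 3 lower at that level, and 2 passed as lower after adjustment. Of all 8643 genes, 3 were higher and 4496 lower at that level on library totals. With TMM scaling, Insig1, Scd3 and Cpt1a of the regulators, the lipogenic enzymes and the fasting genes had negative values at that level, -1.83, -2.02 and -1.92 (adjusted p from 0.272 to 0.322). These were 1 of 13, 1 of 12 and 1 of 4 genes tested, where 402 of all 8643 genes were lower.

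**Figure D4:**
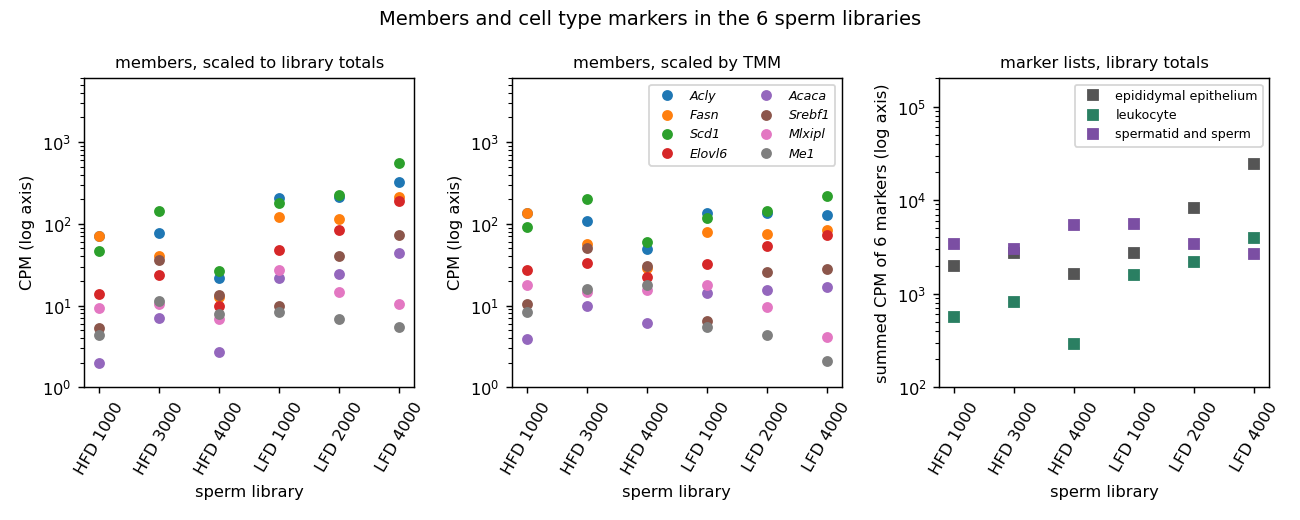
Levels of 8 members in the 6 sperm libraries, in CPM of library totals (left) and TMM-scaled CPM (middle), and summed CPM of 3 lists of 6 marker genes each (right), all on log axes with 1 point per library. On library totals the LFD libraries lie above the HFD libraries for 5 members, as for the leukocyte markers, and after TMM scaling Me1 is higher and Acaca lower on HFD without overlap.

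In morulae all 10 members were detected, in the order Elovl6, Scd1, Acly and Me1 by median RPKM (107, 33.1, 24.9 and 17.1 on LFD; 99.3, 30.4, 22.7 and 17.6 on HFD). Elovl6 measured 708, 639 and 629 CPM in HFD libraries 5, 6 and 7 and 717, 621 and 690 CPM in LFD libraries 1, 2 and 3. Acly measured 106, 120 and 162 CPM on HFD and 174, 120 and 131 on LFD. Pnpla3 measured 4.50, 6.46 and 7.08 CPM on HFD and 6.92, 6.10 and 4.89 on LFD. The groups overlapped in each of these.

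With TMM scaling, 0 of 10 members and 0 of 13447 genes (0%) passed the edgeR test in morula; at an unadjusted p below 0.05 there were 0 members and 858 genes (6.38%), and DESeq2 called 9 genes and limma-voom 0. For Fasn, Acaca, Acly, Scd1, Elovl6 and Me1 the fold changes lay between -0.16 and 0.04 with standard errors of 0.09 to 0.14. Thrsp was the member lower on HFD without overlap (6.18% of all genes tested), at 6, 8 and 12 counts against 25, 13 and 20, or 0.53, 0.67 and 0.95 against 2.04, 1.15 and 1.72 TMM-scaled CPM (-1.17 ± 0.65, adjusted p = 0.805). Srebf1 came to 0.50 ± 0.26 (adjusted p = 0.795), with 12.9, 10.5 and 10.2 TMM-scaled CPM on HFD and 10.4, 6.73 and 6.60 on LFD. No member was higher without overlap after TMM scaling (5.94% of all genes), and on library totals Srebf1 was (6.60%) and Thrsp stayed lower (5.29%). Of the other lists 0 genes passed, and Rxra (-0.26) and Fdps (0.62) had an unadjusted p below 0.05.

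The difference of the diet effect between sperm and morula was tested per member by an exact two-sided permutation over 400 arrangements of the diets within both tables. These arrangements assume no diet effect in either table. A small p can therefore also come from an effect in 1 table alone, and does not by itself show unequal effects. Of the 9 members with a count in both, 0 had a permutation p below 0.05 with TMM scaling. The largest difference was that of Me1, 1.70 in log2 CPM (1.70 in sperm and -0.01 in morula, permutation p = 0.050), followed by Acaca at -1.23 (permutation p = 0.060). With library totals, mtDNA included, Fasn (-2.16, permutation p = 0.030) and Acaca (-2.83, permutation p = 0.045) lay below 0.05 before adjustment for the 9 tests. After Benjamini-Hochberg adjustment both had a permutation p of 0.144 and did not pass. The difference of Me1 on this scale was 0.09 (permutation p = 0.850). The standard errors of the members were 0.48 to 0.73 in sperm and 0.09 to 0.65 in morula, so smaller differences were not detectable in sperm at this spread between libraries.

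**Figure D5:**
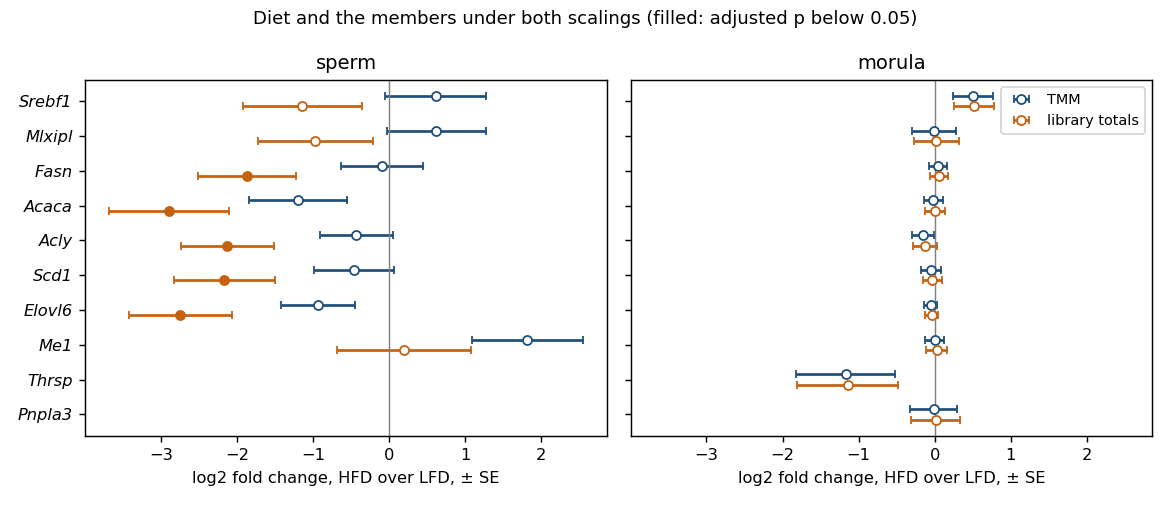
Fold changes of HFD over LFD on the log2 scale with standard errors in sperm (left, 8 members) and morula (right, 10 members), with TMM scaling (blue) and library totals (orange); filled points have an adjusted p below 0.05. In sperm, 5 members pass on library totals and 0 with TMM, and in morula the scalings give nearly the same values and 0 pass.

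Round spermatids, the haploid cells that precede sperm in the testis, had another leading gene. Me1 had the highest RPKM, a median of 61.5, and measured 232, 236.5 and 253 CPM at the lowest, median and highest of the 6 libraries. Fasn and Acaca followed at 8.03 and 7.67 RPKM (74.3 to 95.8 and 121 to 150 CPM), Acly at 4.94 and Elovl6 at 2.23 RPKM. Scd1 was at 0.20 to 0.71 CPM, against 26.4 to 561 CPM in sperm and 114 to 168 CPM in morula. Thrsp and Pnpla3 were below 1 CPM, at 0.15 to 0.43 and 0.35 to 0.52 CPM. The 3 tables come from separate preparations, and the levels are set side by side without a test.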

How the data were processed

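RNA was sequenced from 36 samples in 6 tables. The authors trimmed the reads with BBDuk, aligned them to GRCm38 with STAR, counted them per gene with featureCounts and deposited raw counts, without normalization, together with gene length; liver, eWAT and gastrocnemius libraries were made with a QuantSeq 3′ kit, the others with a full-length kit. Columns of per-sample values left unused numbered 0. Symbols were matched to RefSeq by gene identifier (54723 of 54838 in the liver, eWAT, gastrocnemius and sperm tables, 55141 of 55487 in morula, 51633 of 51912 in round spermatids). Libraries of a group differed by more than sampling noise (chi-square per degree of freedom of at least 3.50).

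CPM, TMM-scaled CPM and RPKM were computed from the counts. Genes passing the edgeR filter (minimum count 10) were tested by edgeR quasi-likelihood (version 4.0.16, R 4.3.3) with TMM scaling and Benjamini-Hochberg adjustment over all genes tested at 0.05, in 1 fit over the 3 tissues and 1 fit each for sperm and morula. The authors' tests used NOISeq, which was not used here. Correlations used exact permutation over 720 pairings (smallest p 0.00139), and the sperm and morula difference 400 arrangements (smallest p 0.005), in scipy 1.17.1. Scripts were tested on simulated data. Alternatives were library totals, DESeq2 size factors, mtDNA left out with TMM and, in sperm, also with plain totals, no filter, DESeq2 1.42.0, limma-voom 3.58.1, a prior count of 0.5 in place of 2, and single libraries left out.

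The members and lists were chosen with earlier results of these data known. All 10 members are named, and of each pathway list the 2 largest calls in each direction in liver against eWAT; names are not given for the other tissue contrasts. The 5 genes most like the mean of the members are named. Hsd17b8 was not matched. Sperm libraries 1000 and 4000 carry the same number on both diets, but the deviations of these pairs correlated at only 0.106 and -0.154, so the numbers were not taken to pair the samples. Single genes of the cholesterol synthesis list are not reported here.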

Additional observations from a re-analysis of the deposited data

Results flagged for a closer look

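Of 37 sets of 6 libraries in which a member had counts, 2 held a library far from the other 5 by Dixon's criterion (a gap to the nearest library, divided by the range, above the 95% critical value), and chance marks about 1 in 20. Both were Acly. eWAT library 17 held 58.1 CPM against a median of 34.6, a gap of 0.652 of the range, and this was the library with 69.8 CPM of spermatid markers and 347 CPM of testis somatic markers (at most 2.29 and 72.8 in the others). Of the 6 testis somatic markers, Amh and Insl3 had no count in any eWAT library. The same list summed to 60.4 to 98.4 CPM in liver, so its sum is not particular to testis. Gastrocnemius library 4 held 8.11 CPM against a median of 3.91, a gap of 0.702 of the range, which is 3 counts in the library with the lowest total. The part of other cells or of depth in these values was not tested.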

How the results depend on the processing

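Genes called for diet in sperm numbered 0 with TMM scaling, 3266 with library totals, 41 without the filter on low counts and 286 with DESeq2; in morula they numbered 0, and 63 without the filter and 9 with DESeq2. With 1 library left out the counts were 0 in sperm and 0 to 2 in morula, where HFD library 5 decided the 2. With a replicate block on the sperm numbers 0 genes were called; morula libraries share no number, so no paired analysis was possible there. Library totals turned the sign of Srebf1 (-1.14) and Mlxipl (-0.97) in sperm (library totals without mtDNA, chosen after seeing the data, gave -0.0139 for Srebf1 and 0 called genes), of Mlxipl (0.021), Acaca (0.0021), Me1 (0.0233) and Pnpla3 (0.0101) in morula, of Acly in liver against eWAT (-0.83) and of Mlxipl in eWAT against gastrocnemius (0.20). Fasn in sperm came to 0.0154 with DESeq2 size factors and 0.0155 with DESeq2, and Mlxipl in morula to 0.0388 with limma-voom. Leaving out 1 library gave ranges across 0 in sperm for Srebf1 (-0.0072 to 1.01) and Fasn (-0.89 to 0.28), and in morula for Mlxipl (-0.17 to 0.34), Fasn (-0.0313 to 0.133), Acaca (-0.0978 to 0.073), Scd1 (-0.204 to 0.0367), Me1 (-0.0975 to 0.0764) and Pnpla3 (-0.14 to 0.12). None of these diet values had passed the test. Mcat (0.26) and Acsf3 (0.48) lost their calls in liver against eWAT with library totals. In the tissue contrasts without eWAT library 17 or gastrocnemius library 4, both chosen after seeing the data, each member kept its direction and its side of the threshold. Of the correlations between members, 0 passed after adjustment under TMM, library totals, DESeq2 size factors or a prior count of 0.5, and on library totals eWAT held 0 pairs at an r of at least 0.8 and 2 at -0.8 or below. The cause of these changes was not tested.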
